A study of Mus musculus with 9 samples.

Results

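The genes described here build the peptide loading route of MHC class I, the surface molecule through which nearly all nucleated cells display fragments of their own proteins to cytotoxic T cells. The 8 genes were B2m, Tap1, Tap2, Tapbp, Psmb8, Psmb9, Psmb10 and Nlrc5, taken by name, with every probe set whose only symbol in the array's platform table was 1 of them. That gave 26 of the 21789 probe sets with 1 symbol and 8 of the 19938 genes these cover. Of the 26, 19 belonged to Nlrc5 and 1 to each of the other genes, and 2 further probe sets that list Tapbp together with Rps3a1 were left out.

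The cells were CAR cells, bone marrow stromal cells rich in the chemokine Cxcl12, which were sorted from mice as lineage-negative cells bright for a green fluorescent protein. The genotype label of every sample is Cxcl12+/gfp, with the reporter at 1 of the Cxcl12 alleles. Granulocyte colony-stimulating factor (G-CSF, 250 µg/kg per day for 5 days) was given to the mice behind 5 arrays, and phosphate-buffered saline (PBS) for the same 5 days to those behind 4 arrays. The treatment groups follow the sample titles, the treatment labels and the sorting protocol, whereas the source names of the same samples speak of pre-B cell colonies. Those source names give the genotype as Hspa9+/- for G-CSF replicates 2 to 5 and as wild type for G-CSF replicate 1 and all PBS replicates, so that this unresolved label runs nearly with the treatment. The log2 level of Hspa9 itself was 7.72, 7.84, 7.64, 7.06 and 7.44 in G-CSF replicates 1 to 5, against 7.77, 7.57, 6.96 and 7.39 in PBS replicates 1 to 4, and the arrays named Hspa9+/- overlapped the rest. No source says which animals or pools each replicate came from, and every p-value therefore reflects the variation among arrays alone.

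Proteasomes cut cytosolic proteins into peptides, and interferon-inducible catalytic subunits, Psmb8, Psmb9 and Psmb10, replace the standard ones to form the immunoproteasome. The Tap1 and Tap2 proteins form the transporter that carries peptides into the endoplasmic reticulum, where tapasin (Tapbp) holds the class I heavy chain beside it and B2m supplies the light chain. NLRC5 is the transactivator that drives class I heavy chain, B2m, Tap1 and Psmb9 transcription through the X and Y boxes of their promoters, and interferon gamma raises most of the route.

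The study asks how stromal cells respond to a cytokine given to the whole animal. Upstream DNA of B2m, Tap1 and Psmb9 is shown first. The B2m upstream region is given because it holds the classical elements in 1 short stretch, and the DNA between Tap1 and Psmb9 because these neighbours are transcribed away from each other out of that stretch. Both are from RefSeq's mouse assembly GRCm38.p6 on the plus strand, at chr2:122147437-122147686 for B2m and chr17:34187331-34187555 for Tap1 and Psmb9. Capitals mark motif matches.
B2m: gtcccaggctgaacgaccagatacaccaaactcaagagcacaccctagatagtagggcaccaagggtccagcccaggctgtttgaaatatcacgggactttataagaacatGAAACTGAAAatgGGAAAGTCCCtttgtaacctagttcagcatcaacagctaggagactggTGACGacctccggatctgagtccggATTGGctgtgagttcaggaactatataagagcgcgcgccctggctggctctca
Tap1-Psmb9: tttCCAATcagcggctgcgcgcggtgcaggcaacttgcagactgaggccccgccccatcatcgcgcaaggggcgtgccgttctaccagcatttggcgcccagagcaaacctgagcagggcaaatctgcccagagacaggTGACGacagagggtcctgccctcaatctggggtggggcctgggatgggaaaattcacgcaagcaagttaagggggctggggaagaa
The motifs were searched on both strands in windows that run from 250 bases before to 50 bases after a gene start. In B2m the capitals are, in printed order, the interferon-stimulated response element GAAANNGAAA, an NF-kB site, the X2 box core TGACG and the Y box ATTGG, none of which overlap. In the Tap1-Psmb9 stretch they are a Y box on the minus strand, which reads CCAAT, and then TGACG. Among 32851 mouse promoter windows of the same length, GAAANNGAAA occurred in 3.44%, the NF-kB motif in 4.51%, TGACG in 20.8% and ATTGG in 37.4%. TGACG followed by ATTGG after 10 to 30 bases, the spacing seen in B2m, occurred in 0.743%. RefSeq windows were matched for 6 of the 8 genes. The interferon gamma-activated site TTCNNNGAA, held by 8.3% of windows, was found in the Psmb8 window, the Tapbp window held 2 Y boxes and the Psmb10 window held none of these motifs. The Tap1 and Psmb9 windows held neither the spaced TGACG and ATTGG pair nor a match to GAAANNGAAA, TTCNNNGAA or the NF-kB motif. A further TGACG lay on the minus strand of B2m downstream of its start. These matches describe letters and not bound sites.

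None of the 8 genes passed the test in either direction after G-CSF. With limma over all 21789 probe sets, 353 probe sets changed at an adjusted p under 0.05, or 1.62%, of which 162 rose and 191 fell, so that 0 of 8 is a count near the background. At an unadjusted p under 0.05 in the limma fit there were 2 of 8, Tap1 and Psmb9, against a background of 9.22% of probe sets. Counted by probe set, as that background is, it was 3 of 26. The G-CSF and PBS arrays did not overlap for 1 of 8, Tap1, against a background of 4.65%. The mean log2 level was lower in G-CSF arrays for 7 genes and higher for Tapbp, and the median of the 8 differences was -0.26 on the log2 scale. Over all genes the median was 0.01, 48.8% of the differences were below 0, and the middle 50% of them lay between -0.13 and 0.13. The 95% intervals of the 8 differences ran from -1.35 at the lowest to 0.56 at the highest. For 7 of 8 genes the interval lay above -1, a halving, and Psmb9 was the exception. For all 8 it lay below 1, a doubling. Differences inside these intervals are not shown to be absent.

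The genes were read at mid to high signal in the PBS arrays. Values below are log2 RMA intensities, and because probe sets differ in affinity the levels of different genes are not ranked against each other. RMA intensities carry no detection call. Among all probe sets with 1 symbol, the PBS mean of B2m was at percentile 100 after rounding, with only 6 probe sets above it. The brightest of the 19 Nlrc5 probe sets was at percentile 94.8, and the one with the lowest PBS mean was at 57.9. The probe sets of Psmb8, Psmb9 and Psmb10 were at 88.3, 94.7 and 88.8, those of Tap1 and Tap2 at 79.4 and 77.5, and that of Tapbp at 95.

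**Figure D1:**
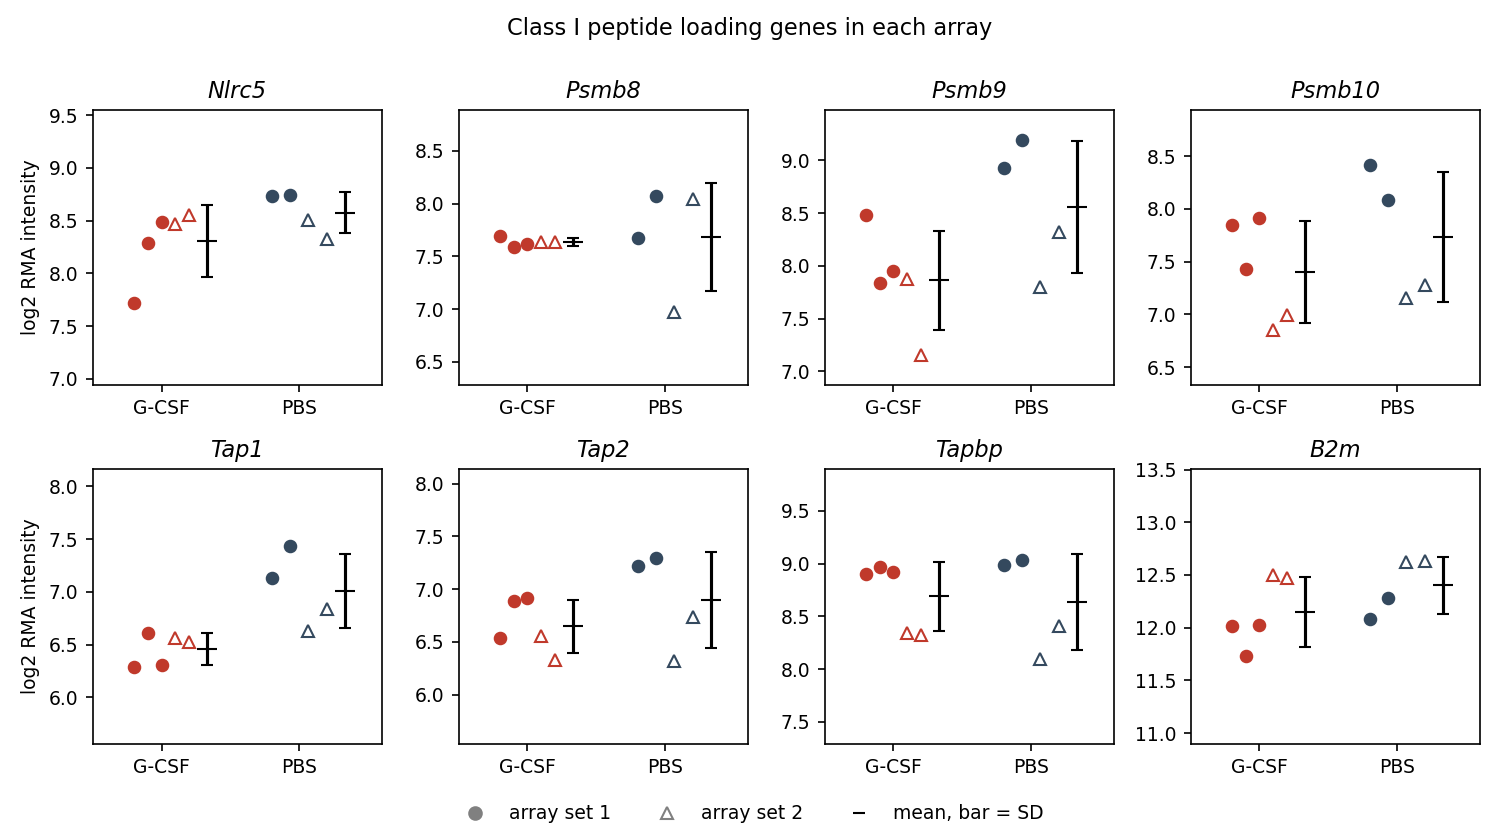
Log2 RMA intensity (vertical axis) of the 8 loading genes in each of 5 G-CSF and 4 PBS arrays, with group means and SD bars at the right of each group. Circles and triangles mark the 2 sets into which the arrays separate on all probe sets. Only for Tap1 do all G-CSF arrays lie below all PBS arrays.

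The arrays separated on the first principal component, which held 34.9% of the variance, into 2 sets that the labels do not name. Set 1 held G-CSF replicates 1 to 3 and PBS replicates 1 and 2, and set 2 held G-CSF replicates 4 and 5 and PBS replicates 3 and 4. PBS replicate 3 lay farthest out, at -56.5, with the next array at -22.5, and had the narrowest spread of log2 values. Both sets hold both treatments, so each gene is also given within sets.

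Nlrc5, the class I transactivator, had 19 probe sets, and the brightest over all arrays (10574100) stands for the gene. Its level was 7.72, 8.29, 8.49, 8.47 and 8.55 in G-CSF replicates 1 to 5, against 8.73, 8.74, 8.51 and 8.33 in PBS replicates 1 to 4. G-CSF replicate 1 was low, G-CSF replicate 2 lay just below the lowest PBS array, and the other 3 lay among the PBS arrays. The means were 8.30 ± 0.34 (SD, n = 5) and 8.58 ± 0.20 (SD, n = 4), a difference of -0.27 (SE 0.19, 95% interval -0.68 to 0.13, limma adjusted p = 0.801). The 19 probe sets had PBS means of 5.83 to 8.58 and differences of -0.88 to 0.39, with a median of -0.17. The difference was below 0 for 14 and above 0 for 5, and the G-CSF and PBS arrays overlapped for all 19. The 19 did not all follow 1 pattern over the arrays: their pairwise Pearson r ran from -0.87 to 0.91, with a median of 0.37. In the limma fit 0 of the 19 passed, and the smallest unadjusted p was 0.0123 (adjusted p = 0.267), the only 1 under 0.05. The 2 brightest probe sets, with PBS means of 8.58 and 8.55, gave differences of -0.27 (SE 0.19) and -0.46 (SE 0.52).

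**Figure D2:**
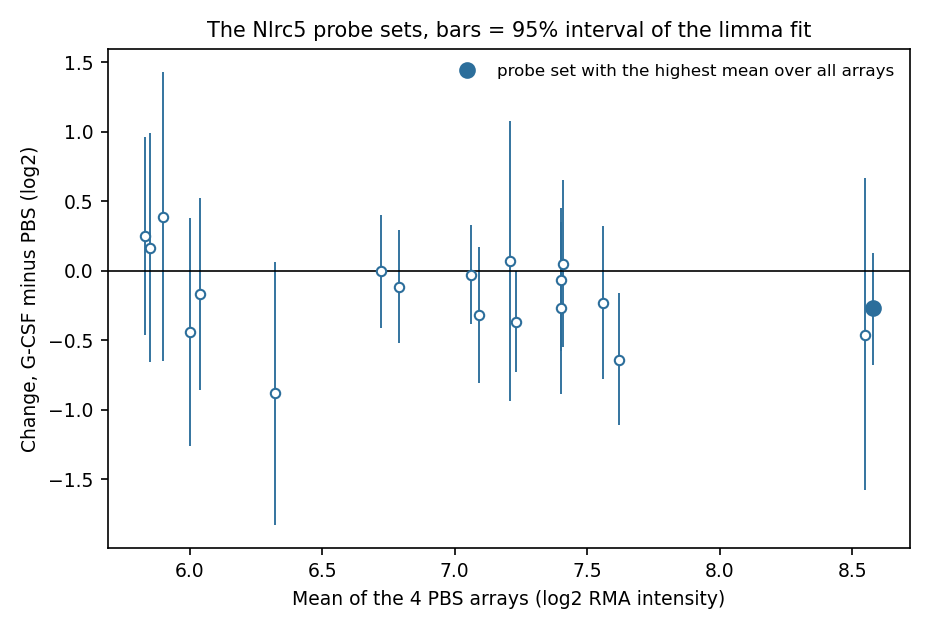
Difference between G-CSF and PBS arrays (log2, vertical axis) against the PBS mean (log2 RMA intensity, horizontal axis) for the 19 Nlrc5 probe sets, with 95% intervals of the limma fit. Differences run from -0.88 to 0.39, and the filled point is the probe set that stands for the gene.

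Psmb9 had the most negative difference of the 3 immunoproteasome subunits and of the 8 genes. Its protein is the inducible subunit that takes the place of the caspase-like Psmb6. Psmb9 (probe set 10450145) read 8.48, 7.84, 7.95, 7.88 and 7.16 in G-CSF replicates 1 to 5, against 8.93, 9.19, 7.80 and 8.32 in PBS replicates 1 to 4. PBS replicates 1 and 2 were above every G-CSF array, and PBS replicates 3 and 4 lay within the G-CSF range. The means were 7.86 ± 0.47 (SD, n = 5) and 8.56 ± 0.63 (SD, n = 4). The difference was -0.70 (SE 0.30, 95% interval -1.35 to -0.05), a 1.62-fold lower mean, with a limma adjusted p of 0.479.

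Psmb8, the inducible chymotrypsin-like subunit (probe set 10444258), read 7.69, 7.59, 7.62, 7.64 and 7.64 in G-CSF replicates 1 to 5, against 7.67, 8.07, 6.97 and 8.04 in PBS replicates 1 to 4. The G-CSF arrays sat within 0.1 of each other in the middle of a wide PBS range, with SDs of 0.04 and 0.52. The difference was -0.05 (SE 0.21, 95% interval -0.51 to 0.40, limma adjusted p = 0.987). Its promoter window held the TTCNNNGAA match named above.

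Psmb10, the inducible trypsin-like subunit (probe set 10581378), read 7.85, 7.43, 7.91, 6.85 and 6.99 in G-CSF replicates 1 to 5, against 8.42, 8.08, 7.16 and 7.28 in PBS replicates 1 to 4. The groups overlapped, and within each treatment the arrays of set 2 were lower than those of set 1. The difference was -0.33 (SE 0.30, 95% interval -0.98 to 0.32, limma adjusted p = 0.889).

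The standard subunits that these replace had differences of -0.07 for Psmb5, -0.18 for Psmb6 and -0.12 for Psmb7, with 0 of 3 past the threshold. Of the other 11 core subunits 0 passed, with a median difference of 0.08. Of 27 activator, assembly and cap genes 0 passed, with a median of 0.10. Among these, the interferon-inducible activator subunits Psme1 and Psme2 had differences of -0.24 (limma adjusted p = 0.922) and 0.29 (adjusted p = 0.826). The smallest p of the core list was that of Psma5, with a difference of 0.40 (SE 0.40), and of the activator list that of Psmf1, a proteasome inhibitor, with 0.35 (SE 0.20).

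Tap1 was the 1 gene of the 8 whose treatment groups did not overlap. Tap1 (probe set 10444244) read 6.29, 6.61, 6.31, 6.56 and 6.52 in G-CSF replicates 1 to 5, against 7.13, 7.43, 6.63 and 6.84 in PBS replicates 1 to 4. The closest arrays were G-CSF replicate 2 and PBS replicate 3, at 6.61 and 6.63. The means were 6.46 ± 0.15 (SD, n = 5) and 7.01 ± 0.35 (SD, n = 4). The difference was -0.55 (SE 0.18, 95% interval -0.93 to -0.17), a 1.46-fold lower mean. Tap1 had the smallest p of the 8 (0.00829 unadjusted), and the limma adjusted p was 0.215, with a range of 0.0636 to 0.833 over the alternatives.

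Tap2 (probe set 10444268), the other transporter subunit, read 6.54, 6.89, 6.92, 6.56 and 6.33 in G-CSF replicates 1 to 5, against 7.22, 7.30, 6.32 and 6.74 in PBS replicates 1 to 4. PBS replicates 1 and 2 were above every G-CSF array and PBS replicate 3 was below them all. The difference was -0.25 (SE 0.21, 95% interval -0.71 to 0.22, limma adjusted p = 0.879). Psmb9, Tap1, Psmb8 and Tap2 are consecutive protein-coding genes on chromosome 17, between H2-DMb1 and H2-Ob. The 4 neighbours had differences of -0.70, -0.55, -0.05 and -0.25 in that order. Psmb9 and Tap1, which share the printed intergenic stretch, had the most negative 2 of the 8 differences. Their levels correlated at a Pearson r of 0.71 over the 9 arrays. The 28 pairs of the 8 genes had a median r of 0.42, and Tapbp and Psmb10, on different chromosomes, had 0.84. After centring on the mean of each treatment within each array set, r of Psmb9 and Tap1 was 0.1. The median over the 28 pairs was then 0.11. Whether the shared stretch plays a part was not tested.

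Tapbp, which bridges transporter and heavy chain (probe set 10444068), read 8.90, 8.97, 8.92, 8.34 and 8.32 in G-CSF replicates 1 to 5, against 8.99, 9.03, 8.10 and 8.41 in PBS replicates 1 to 4. The groups overlapped almost fully, and the spread lay between the array sets. The difference was 0.06 (SE 0.23, 95% interval -0.44 to 0.56, limma adjusted p = 0.989).

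B2m (probe set 10475414), the light chain, read 12.02, 11.73, 12.03, 12.50 and 12.47 in G-CSF replicates 1 to 5, against 12.08, 12.28, 12.62 and 12.63 in PBS replicates 1 to 4. The groups overlapped, and B2m was higher in set 2 than in set 1, the opposite of Psmb10 and Tapbp. The means were 12.15 ± 0.33 (SD, n = 5) and 12.40 ± 0.27 (SD, n = 4), a difference of -0.25 (SE 0.19, 95% interval -0.67 to 0.17, limma adjusted p = 0.84).

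Within array set 1 the G-CSF mean was below the PBS mean for all 8 genes, and within set 2 for 5 of 8. In set 1, with 3 G-CSF and 2 PBS arrays, the differences were -0.97 for Psmb9, -0.88 for Tap1, -0.57 for Nlrc5, -0.52 for Psmb10, -0.47 for Tap2, -0.25 for B2m, -0.24 for Psmb8 and -0.08 for Tapbp. In set 2, with 2 arrays of each treatment, they were -0.54 for Psmb9, -0.30 for Psmb10, -0.19 for Tap1, -0.14 for B2m and -0.09 for Tap2, with 0.08 for Tapbp, 0.09 for Nlrc5 and 0.13 for Psmb8. None passed in either set alone. Whether the difference of a gene differs between sets was not tested. The sets also differed from each other without treatment. PBS arrays of set 1 were above PBS arrays of set 2 by 1.03 for Psmb10, 1.00 for Psmb9, 0.76 for Tapbp and 0.72 for Tap2, whereas B2m was lower by 0.44. With the set as a block in the limma fit, the adjusted p was 0.0762 for Psmb9 (difference -0.77) and 0.111 for Tap1 (difference -0.57), and still 0 of 8 passed.

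Single arrays moved several of these differences by more than 1.5 times, and none of the 8 genes passed with any 1 array left out. Over the 9 fits that each left out 1 array, the difference of Psmb10 ran from -0.52 (without PBS replicate 3) to -0.10 (without PBS replicate 1), and that of Tap2 from -0.44 (without PBS replicate 3) to -0.11 (without PBS replicate 2). That of Nlrc5 ran from -0.35 to -0.13, with the last without G-CSF replicate 1, and that of B2m from -0.36 to -0.15. Psmb9 ran from -0.95 to -0.49 and Tap1 from -0.68 to -0.41.

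Other genes of class I loading were read from the same fit. Of 16 measured loading and trimming genes (18 listed) 0 passed, with a median difference of 0.04, and 9 were positive and 7 negative. Erap1, the aminopeptidase that trims peptides in the endoplasmic reticulum, had a difference of -0.37 (SE 0.14, limma adjusted p = 0.389). Uggt1, the glucosyltransferase that returns unfolded glycoproteins to chaperones, had 0.37 (SE 0.15, adjusted p = 0.389). The tapasin relative Tapbpl had -0.11, and the chaperones Calr, Canx and Pdia3 had 0.07, 0.07 and 0.12.

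Of 23 listed heavy chain genes 12 were measured by a probe set of their own and 0 passed, with a median of -0.05. H2-K1, H2-D1 and H2-T23 appear only in probe sets that list several symbols, and are not analysed here. H2-M3, a chain that presents formylated peptides, had a difference of 0.04 (limma adjusted p = 0.991). Cd1d1, the class I-like molecule that presents lipids and also pairs with B2m, had the smallest p of the list, with a difference of -0.67 (SE 0.37, adjusted p = 0.692). In array set 1 alone its difference was -1.30 and passed (adjusted p = 0.0242), whereas in set 2 alone it was -0.14 (adjusted p = 0.904), and with 1 array left out it was -1.02 to -0.39 and did not pass. The spread of Cd1d1 lay between the sets, with PBS values of 7.78, 7.78, 6.31 and 5.87.

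**Figure D3:**
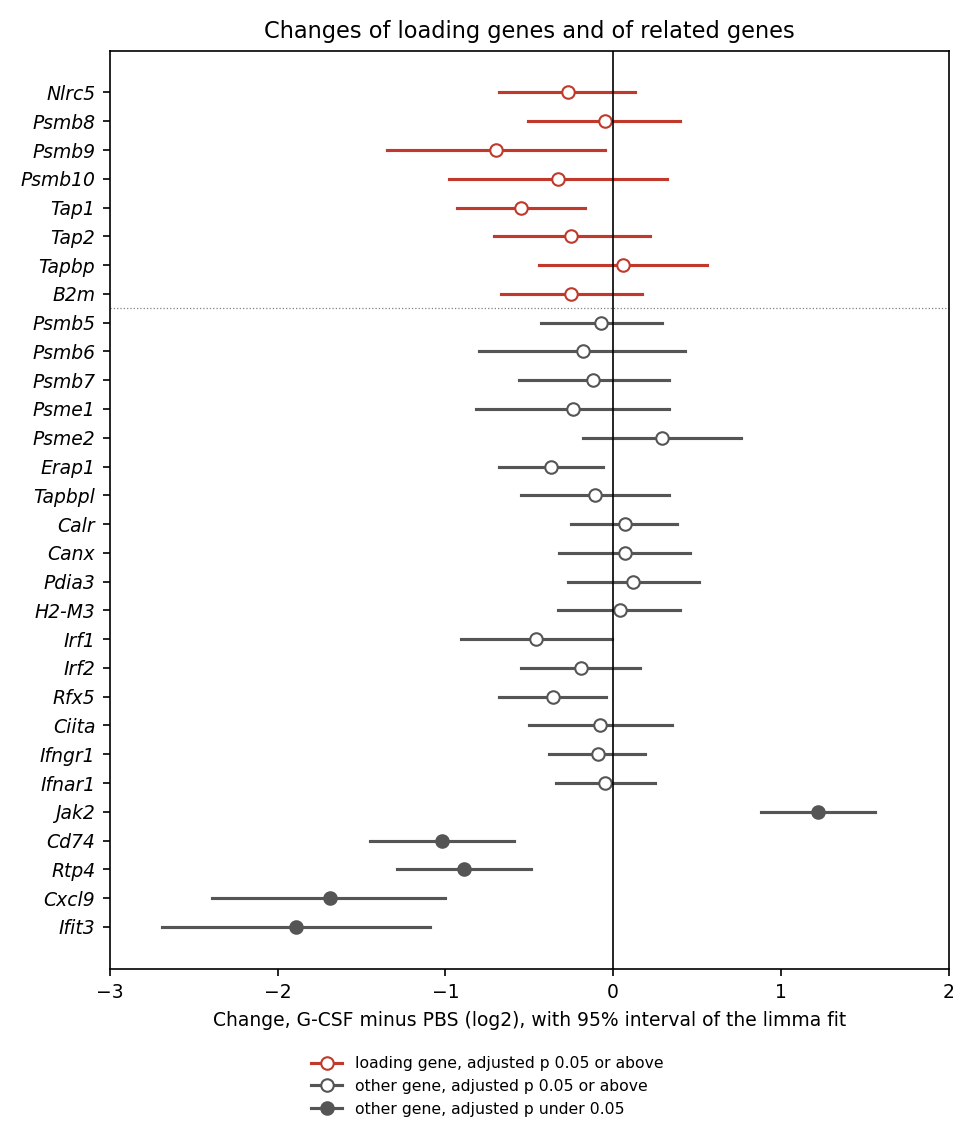
Difference between G-CSF and PBS arrays (log2, horizontal axis) for the 8 loading genes and 22 related genes, with 95% intervals of the limma fit. Filled points passed an adjusted p under 0.05, which no loading gene did; Jak2 rose and Cd74, Rtp4, Cxcl9 and Ifit3 fell.

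The transcription factors and interferon genes that act on the route were read from the same fit. Of 15 measured class I transcription factors (17 listed) 0 passed, with a median difference of -0.01. Irf1, which binds the interferon-stimulated response element, had a difference of -0.46 (SE 0.21, limma adjusted p = 0.524). Irf2, which binds the same element, had -0.19. Rfx5, which binds the X box, had -0.36 (SE 0.15, adjusted p = 0.445). Ciita, the class II transactivator, had -0.08.

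Of 12 interferon receptor and signalling genes 1 rose and 0 fell, with a median of -0.05, beside 1.62% of all probe sets called. The gene that rose was Jak2, the kinase bound to the interferon gamma receptor and to many cytokine receptors. Its level was 8.68, 8.42, 8.40, 8.38 and 8.75 in G-CSF replicates 1 to 5, against 7.35, 7.53, 6.98 and 7.38 in PBS replicates 1 to 4. The groups were far apart, with a difference of 1.22 (SE 0.16), 2.32-fold, and a limma adjusted p of 0.00162. The receptor chains Ifngr1 and Ifnar1 had differences of -0.09 and -0.05.

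Targets of interferon other than the loading genes were mostly lower after G-CSF, and 3 of them fell. Of 16 measured interferon gamma response genes (20 listed) 14 had a negative difference and 1 fell, with a median of -0.32. Of 22 measured type I interferon response genes (24 listed) 19 had a negative difference and 2 fell, with a median of -0.26. These medians stand beside -0.26 for the loading genes and 0.01 over all genes. Of all genes 48.8% had a negative difference, and 1.62% of all probe sets were called in either direction.

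The interferon gamma response gene that fell was Cxcl9, a chemokine that attracts T cells. It read 8.64, 9.49, 8.07, 8.15 and 9.24 in G-CSF replicates 1 to 5, against 10.21, 11.15, 9.96 and 10.31 in PBS replicates 1 to 4. The groups did not overlap, and the mean was 3.23-fold lower (difference -1.69, SE 0.32, limma adjusted p = 0.0194). Without PBS replicate 2, PBS replicate 4, G-CSF replicate 1 or G-CSF replicate 4 the adjusted p was 0.0506 to 0.0545.

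The type I response genes that fell were Ifit3, an interferon-induced antiviral protein, and Rtp4, a receptor-transporting protein induced by interferon. Ifit3 averaged 5.25 ± 0.86 in G-CSF arrays (SD, n = 5) and 7.14 ± 0.34 in PBS arrays (SD, n = 4), a 3.71-fold lower mean with a limma adjusted p of 0.0227. Rtp4 averaged 7.73 ± 0.16 in G-CSF arrays and 8.62 ± 0.38 in PBS arrays, with a limma adjusted p of 0.0312. Both had groups that did not overlap. The call of Ifit3 was lost without PBS replicate 1, 3 or 4 or G-CSF replicate 1, 3 or 4 (limma adjusted p up to 0.0725). That of Rtp4 was lost without PBS replicate 3 or 4 or any single G-CSF array (adjusted p up to 0.0821).

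The class II route, whose transactivator is Ciita, had 8 of 10 listed genes measured, with a median of -0.13. Of the 8, 1 fell, beside 1.62% of all probe sets called. The gene was Cd74, the invariant chain that guards the class II groove. Cd74 averaged 5.14 ± 0.19 in G-CSF arrays (SD, n = 5) and 6.16 ± 0.42 in PBS arrays (SD, n = 4), with a difference of -1.02 (SE 0.20, limma adjusted p = 0.022). Its call was lost without PBS replicate 1, 2 or 4 or G-CSF replicate 1, 2, 3 or 4 (adjusted p up to 0.0707).

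**Figure D4:**
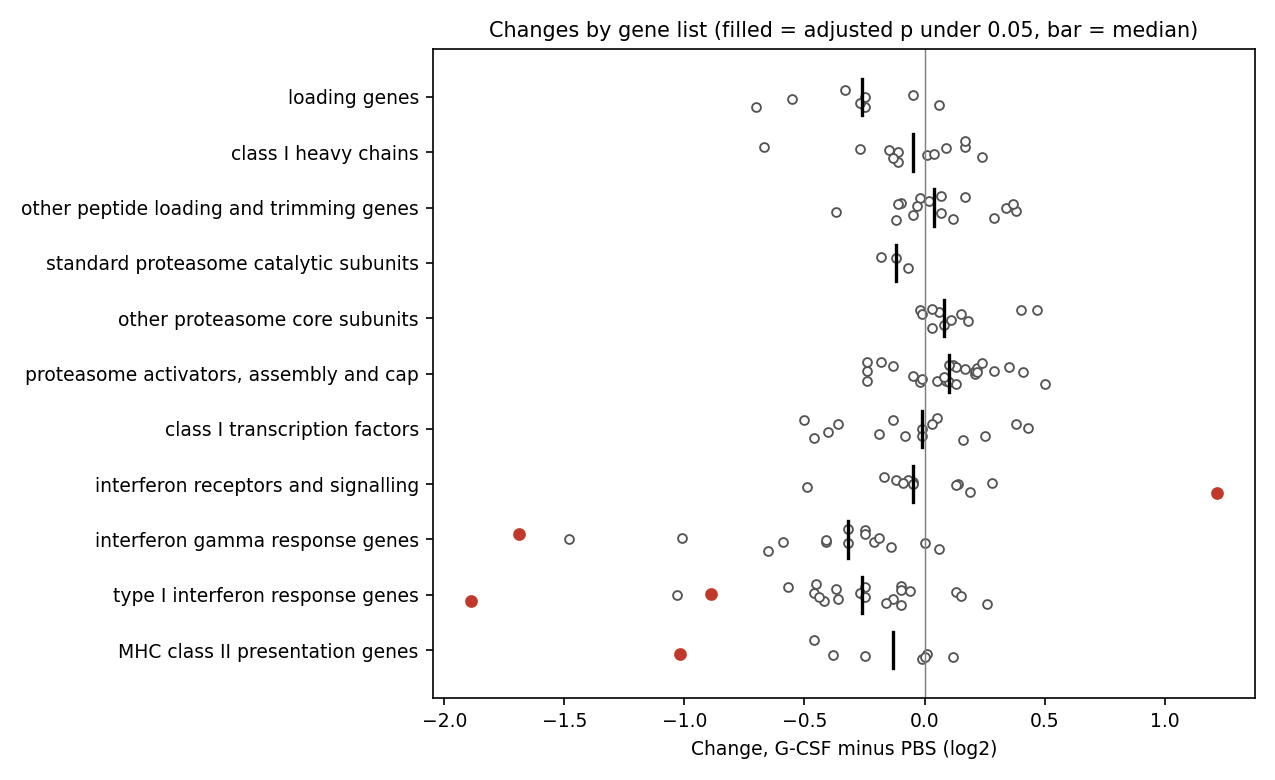
Difference between G-CSF and PBS arrays (log2, horizontal axis) of every measured gene in the loading genes and 10 related lists, with a vertical bar at each list's median and filled points for an adjusted p under 0.05. The loading genes and both interferon response lists have medians of -0.26, -0.32 and -0.26, and the proteasome core and cap lists have 0.08 and 0.10.

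The class I route is active in most cells a bone marrow sort can hold, so markers of those cells were read beside it. The 9 CAR cell markers had a mean log2 level of 10.26 to 10.32 in G-CSF arrays and 10.72 to 10.96 in PBS arrays, high in every array. Of the 9, 4 fell (Kitl, Ebf3, Adipoq and Vcam1), beside 1.62% of all probe sets called in either direction. The 9 had 7 negative and 2 positive differences, with a median of -0.66. Their summed intensity was 13344 to 14571 in G-CSF arrays and 18584 to 21435 in PBS arrays. Fewer cells of a type and less RNA per cell cannot be told apart in such bulk samples.

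Markers of blood cells were also read in these arrays, beside a background of 1.62% of probe sets called in either direction. The 10 pan-leukocyte markers summed to 1937 to 3819 in G-CSF arrays and 1245 to 2401 in PBS arrays, and 1 of 10 rose (Cd52). Of the 10, 9 had a positive difference and 1 a negative one, with a median of 0.64. The 16 neutrophil markers summed to 13656 to 21283 in G-CSF arrays and 7770 to 19198 in PBS arrays, and 2 of 16 rose (Mmp9 and Csf3r). All 16 had a positive difference, with a median of 0.89. The 11 measured B cell markers all had a negative difference, with a median of -0.68, and 4 fell (Cd79a, Ms4a1, Ebf1 and Dntt). They summed to 789 to 874 in G-CSF arrays and 1353 to 1690 in PBS arrays. Most of that sum was Ebf1, a B cell factor that marrow stromal cells also express, at 537 to 647 in G-CSF arrays and 996 to 1239 in PBS arrays. The other 10 markers, summed after these values were seen, gave 207 to 281 in G-CSF arrays and 302 to 450 in PBS arrays. The 8 measured erythroid markers summed to 202 to 258 in G-CSF arrays and 292 to 850 in PBS arrays, and 2 fell (Car1 and Tfrc). All 8 had a negative difference, with a median of -0.63.

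The markers of 4 further cell types were read in the same way. Of 16 macrophage and dendritic cell markers 0 passed, with sums of 1181 to 2264 in G-CSF arrays and 1160 to 2539 in PBS arrays. Of 11 T and NK cell markers 0 passed, with sums of 254 to 310 in G-CSF arrays and 188 to 358 in PBS arrays. Of 11 endothelial markers 0 passed, with sums of 316 to 381 in G-CSF arrays and 321 to 411 in PBS arrays. Of 10 smooth muscle and pericyte markers 1 rose (Acta2), with sums of 1951 to 2659 in G-CSF arrays and 1200 to 1663 in PBS arrays. RMA gives no value of 0, so none of these markers can be called absent, and their part in the levels of the loading genes was not tested.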

How the data were processed

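RNA of sorted CAR cells was amplified and hybridised to 9 Affymetrix Mouse Gene ST arrays, 5 of G-CSF and 4 of PBS mice. Per the submitters' processing notes, the authors used RMA in Affymetrix Expression Console to make the deposited intensity values, with versions not given in the sources used here. RMA corrects background, normalises arrays to a shared distribution and summarises probes, so a change in total RNA per cell cannot be seen. The values were on a linear scale (array medians 34.72 to 37.24), and log2 was taken here. Precision is limited by how many arrays there are.

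Of 35553 probe sets, the platform table gave 1 symbol for 21789, several for 1621 and none for 12143. Only those with 1 symbol were tested. Of 19938 genes, 999 had several probe sets, and the one with the highest mean over all arrays stood for the gene. Groups and replicate numbers follow the titles. G-CSF was compared with PBS by limma 3.58.1 (lmFit, eBayes, two-sided) in R 4.3.3 without covariates, with Benjamini-Hochberg adjustment over all 21789 probe sets and a threshold of 0.05. A fold is a ratio of geometric means.

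The members and lists were chosen with earlier results of these data known. Named genes are all members, a set of key pathway genes whatever their result, and from each list those past the threshold (at most 4) or else the 1 with the smallest p. Over probe sets, deviations of same-numbered arrays from their group means correlated at 0.28, 0.14, -0.28 and 0.35 for replicates 1 to 4. Different-numbered arrays were not compared, and the replicate 3 arrays lay in different array sets, so these values do not settle whether the arrays pair. Alternatives covered the probe set filter, eBayes settings, normalisation, array weights, an added constant of 16, the replicate block, the array sets, thresholds and leaving out each array. The array sets come from the values, and no label names them. The limma fit alone was tested on simulated data, from which no value is quoted. Promoter windows are RefSeq's for GRCm38.p6 and were matched by symbol.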

Additional observations from a re-analysis of the deposited data

Results flagged for a closer look

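Among the named genes, 68 groups of arrays were checked for a single highest or lowest value whose gap to its nearest neighbour, as a share of the group's range, was above Dixon's 95% critical value. About 1 in 20 groups shows such a gap by chance, and 6 groups did here, none of them of a loading gene. The low Nlrc5 value in G-CSF replicate 1, 7.72 with the nearest at 8.29, stayed below that critical value. Rtp4 was 7.45 in G-CSF replicate 5, with the nearest G-CSF array at 7.74, and Cd74 was 5.48 in the same array, with the nearest at 5.12. Uggt1 was 6.74 in G-CSF replicate 3, with the nearest at 6.93. Erap1 was 7.34 and Pdia3 was 9.80 in PBS replicate 4, with the nearest PBS arrays at 7.16 and 9.39. Ifngr1 was 9.09 in PBS replicate 3, with the nearest at 9.39.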

How the results depend on the processing

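The count of 0 loading genes past the threshold held under all 24 alternatives, which were other filters, normalisations, weights, blocks, thresholds and sets of arrays, and the lowest limma adjusted p of any of the 8 was 0.0636 (Tap1 with array weights). In 165 of 176 values the difference of a loading gene kept its sign. B2m, Tap1, Tap2, Psmb9 and Psmb10 were negative in each fit. The median difference was -0.37 to -0.18 with 1 array left out and -0.50 to -0.11 otherwise, with -0.50 in array set 1 and -0.11 in set 2.

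The number of probe sets changed was 353, against 181 with all probe sets tested, 180 with the replicate number as a block, 598 with the array set as a block, 202 in set 1 alone, 59 in set 2 alone, 149 at an adjusted p under 0.01 and 210 to 318 with 1 array left out. It was lowest without PBS replicate 1 (210), G-CSF replicate 1 (222) and G-CSF replicate 4 (224). The replicate block called 0 of 8 loading genes and ended the call of Rtp4 (limma adjusted p = 0.115). Testing all probe sets ended the calls of Cxcl9, Ifit3, Rtp4 and Cd74 (adjusted p of 0.0814 to 0.0986). Set 1 alone ended those of Cxcl9, Ifit3 and Rtp4 (0.0961 to 0.251), and set 2 alone those of all 4 and Jak2 (0.0998 to 0.555). Averaging G-CSF replicates 4 and 5 ended that of Rtp4 (0.0641). These 2 were the most alike arrays within a treatment, with an SD of log2 differences of 0.28. Other pairs within a treatment had 0.37 to 0.67, and no source says whether the 2 are independent.

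Some differences changed sign. Further quantile normalisation gave 0.00 for Calr and Canx. Array weights gave -0.16 for Tapbp, -0.01 for H2-M3, 0.07 for Ciita and -0.03 for Psma5. The set block gave -0.01 for Tapbp. Set 1 alone gave -0.08 for Tapbp and -0.13 for Psma5. Set 2 alone gave 0.13 for Psmb8, 0.09 for Nlrc5, -0.01 for H2-M3, 0.18 for Tapbpl, 0.02 for Psmb5, 0.00 for Psme1, 0.02 for Ifngr1 and 0.14 for Ifnar1. With 1 array left out, differences ran from -0.30 to 0.07 for Psmb8, -0.12 to 0.19 for Tapbp, -0.05 to 0.14 for H2-M3, -0.04 to 0.18 for Canx, -0.14 to 0.03 for Psmb5, -0.45 to 0.01 for Psmb6, -0.26 to 0.09 for Psmb7, -0.19 to 0.09 for Ciita, -0.12 to 0.02 for Ifnar1 and -0.13 to 0.63 for Psma5. The cause was not tested.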

Other observations

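Genes were sought whose pattern over the 9 arrays was most like the mean of the 8 loading genes. The 8268 candidates had a mean log2 level of at least 6. Likeness was Pearson's r with the mean of the 8 genes, each centred on its own mean. The 8 genes did not share 1 pattern: over their 28 pairs r ran from -0.85 (B2m and Tapbp) to 0.84, with a median of 0.42. The 5 closest candidates were Nt5c2 and Plpp3 at 0.98 and Atl3, Irs1 and Tor1aip2 at 0.96. Their differences between G-CSF and PBS arrays were -0.37 for Nt5c2, -0.48 for Plpp3, -0.28 for Atl3, -0.59 for Irs1 and -0.18 for Tor1aip2, and 0 of 5 passed the limma threshold (adjusted p of 0.403 to 0.852). All points share the 2 array sets, and the likeness is a description. The centred mean of the 8 genes was -0.09, -0.11, -0.01, -0.17 and -0.28 in G-CSF replicates 1 to 5, against 0.37, 0.49, -0.26 and 0.05 in PBS replicates 1 to 4. PBS replicates 1 and 2 were high, PBS replicate 4 lay just above the G-CSF arrays, and PBS replicate 3 was within their range.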
